A study of Bos taurus with 6 samples.

Results

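Transcripts of bovine mesenchymal stem cells (MSCs) from bone marrow, cultured in agarose without transforming growth factor beta 3 (TGF-beta3), were compared between day 21 and day 3 of culture. Of 24016 probe sets that are not controls, 10804 (45.0%) had a signal over 50 on at least 1 of the 2 arrays and entered the comparison, and these gave 1 value each for 5367 of 9155 named genes. The series holds 6 Affymetrix bovine arrays, 1 for each condition, from a study of how TGF-beta3 and compression affect cartilage formation by these cells. Both groups used here were bone marrow MSCs cast in agarose and fed a chemically defined medium, the first for 3 days and the second for 21 days, with TGF-beta3 left out of both and no loading of either. The submitters call both undifferentiated. RNA of each was amplified from total RNA and hybridised to 1 array, and the sources used here do not give how many donors or constructs an array holds. With 1 array a side there is no replicate check and no test, so every difference below is a size measured between 2 arrays, and the number of arrays limits its precision.

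MSCs of the bone marrow are stromal cells that can form bone, cartilage and fat cells in culture. TGF-beta3 is the factor usually added to drive them towards cartilage, and without it gel-cast cells receive no added signal of that kind. In fat cell formation the nuclear receptor PPARG turns on genes for taking up fatty acids, building triglyceride and coating the lipid droplet, while fibroblast-like stromal cells are known for making type I collagen and the proteins that fold and crosslink it.

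The labelled cell type stood in both arrays. Of 11 stromal cell markers (NT5E, THY1, ENG, ALCAM, CD44, COL1A1, COL1A2, COL3A1, VIM, PDGFRB and CXCL12), 9 had a signal over 50 at day 3 and 9 at day 21, and their summed signal was 30927 at day 3 and 16282 at day 21. ENG and PDGFRB were the dim ones, with signals of 20.2 and 37.5 at day 3. Defining markers of lymphocytes and of endothelial, neural, epithelial and red cells were mostly under the floor, a signal of 15.1, the value given to anything dimmer. All 5 lymphocyte markers (CD3D, CD3E, CD2, CD79A and MS4A1) were under it on both arrays, as were 4 of 5 endothelial markers (PECAM1, CDH5, KDR and VWF), all 3 neural markers (GFAP, NES and SNAP25), the epithelial markers EPCAM and KRT18 and, of 3 red cell markers measured, HBA and ALAS2. The remaining markers of these types, TEK (37.1 and 36.0), CDH1 (37.5 and 22.3) and HBB (12.3 and 18.9), did not reach 50. Of 6 fat cell markers measured, 4 were over 50 at day 3 and all 6 at day 21, with summed signals of 5063 and 13575, and the day 21 array is labelled undifferentiated. Of 8 macrophage and myeloid markers measured, 2 were over 50 at day 3 and 5 at day 21, with summed signals of 278 and 487, and CSF1R was under the floor on both arrays. In bulk RNA a change in the number of cells of a type and a change in RNA per cell cannot be told apart.

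Most probe sets stood near the same signal on both arrays. At day 21, 822 of the 10804 probe sets (7.61%) stood at least 2-fold higher and 598 (5.53%) at least 2-fold lower, while 9384 (86.9%) lay within 2-fold, around a median log2 difference of 0.00. A larger difference was more often a higher one. At least 4-fold, 163 probe sets were higher and 77 lower, and at least 8-fold, 60 were higher and 10 lower. Among named genes, with the brightest probe set standing for each, 392 (7.3%) were higher and 251 (4.68%) lower. These shares are the background for the list counts below at the main setting. The choice of what enters has a large part in the counts. With a signal over 50 asked of both arrays, 371 of 9258 probe sets were higher and 287 lower. Of the members, 99 were under the floor at day 3 and 42 at day 21, and their folds are lower bounds, written as "at least". The members nearest the threshold had a larger signal of 50.001 and the nearest left out 49.98.

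**Figure D1:**
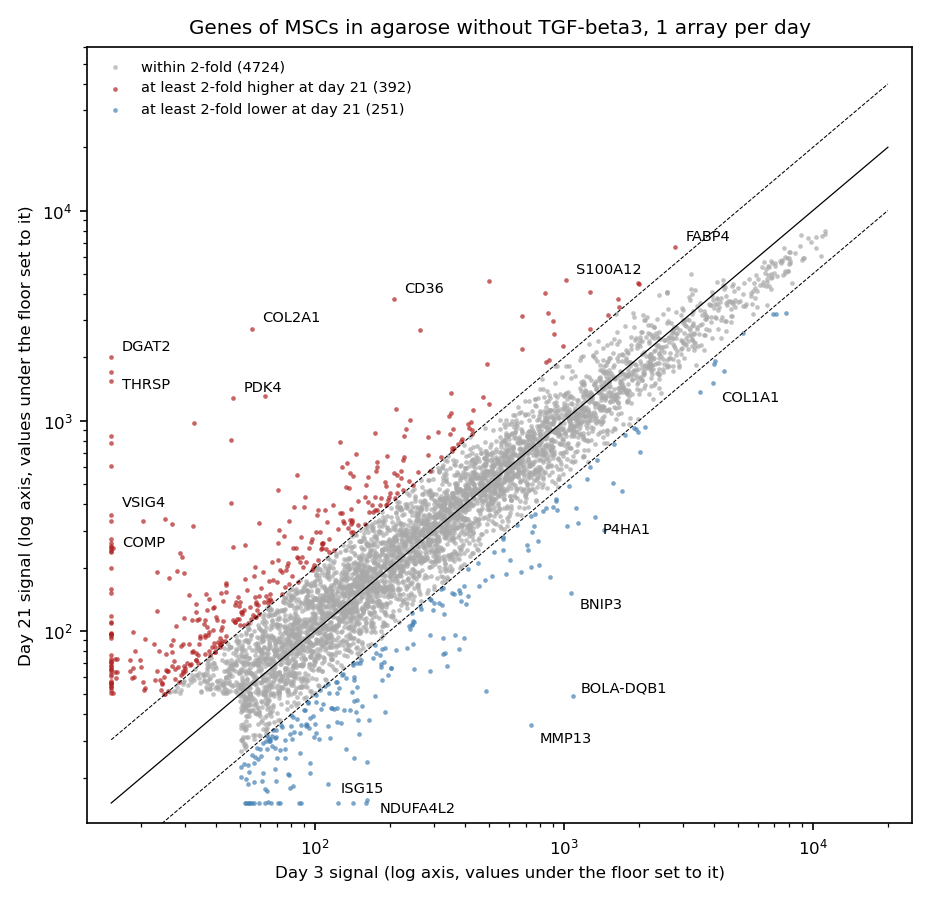
Signal of 5367 named genes at day 3 (horizontal) and day 21 (vertical), both on log axes, with any signal below the floor drawn at the floor. The solid line marks equal signal and the dashed lines 2-fold. There are 392 genes above the upper dashed line and 251 below the lower one, and genes drawn at the floor have only a lower bound on their fold.

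The scale of the arrays touches every small shift. Both were scaled to the same trimmed mean signal (150 each), and their median signals were 27.3 and 28.7. The 18 hybridisation spike probe sets, for foreign transcripts added in fixed amounts, had a median signal of 3727 at day 3 and 2618 at day 21, a median log2 difference of -0.45, and the 36 ribosomal protein genes had a median of -0.39. Setting the spikes equal shifted log2 differences up by about 0.51, more than the size of the median spike difference (-0.45). The median log2 difference of all members rose to 0.51. The split turned from 822 higher and 598 lower (57.9% higher) to 2183 higher and 216 lower (91.0% higher). List counts under equal spikes below belong beside these 2183 and 216 of 10804 probe sets, not beside the shares at the main setting. The ribosomal median was 0.12 on that scale and 0.01 after quantile normalization. Which scale is closer to RNA per cell was not tested. The 3 prime to 5 prime signal ratio of GAPDH, a sign of RNA and amplification quality, was 1.66 at day 3 and 1.72 at day 21. The same ratio of EF1A was 0.131 and 0.198, and the part of RNA quality in the results was not tested.

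Gene lists differed by direction. Counted by higher genes, fat cell genes (22 of 25) and macrophage and myeloid markers (9 of 14) led. Cholesterol synthesis (8 of 13) and fatty acid oxidation (7 of 18) followed. The fibrous matrix (8 of 19), hypoxia and glycolysis (7 of 22) and cytokine (6 of 16) lists held the most lower genes. The cytokine list also had 3 higher, and the interferon list had the largest lower share, 5 of 6. Over all named genes 7.3% were higher and 4.68% lower. Of 38 lists, 32 had at least 6 genes compared.

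**Figure D2:**
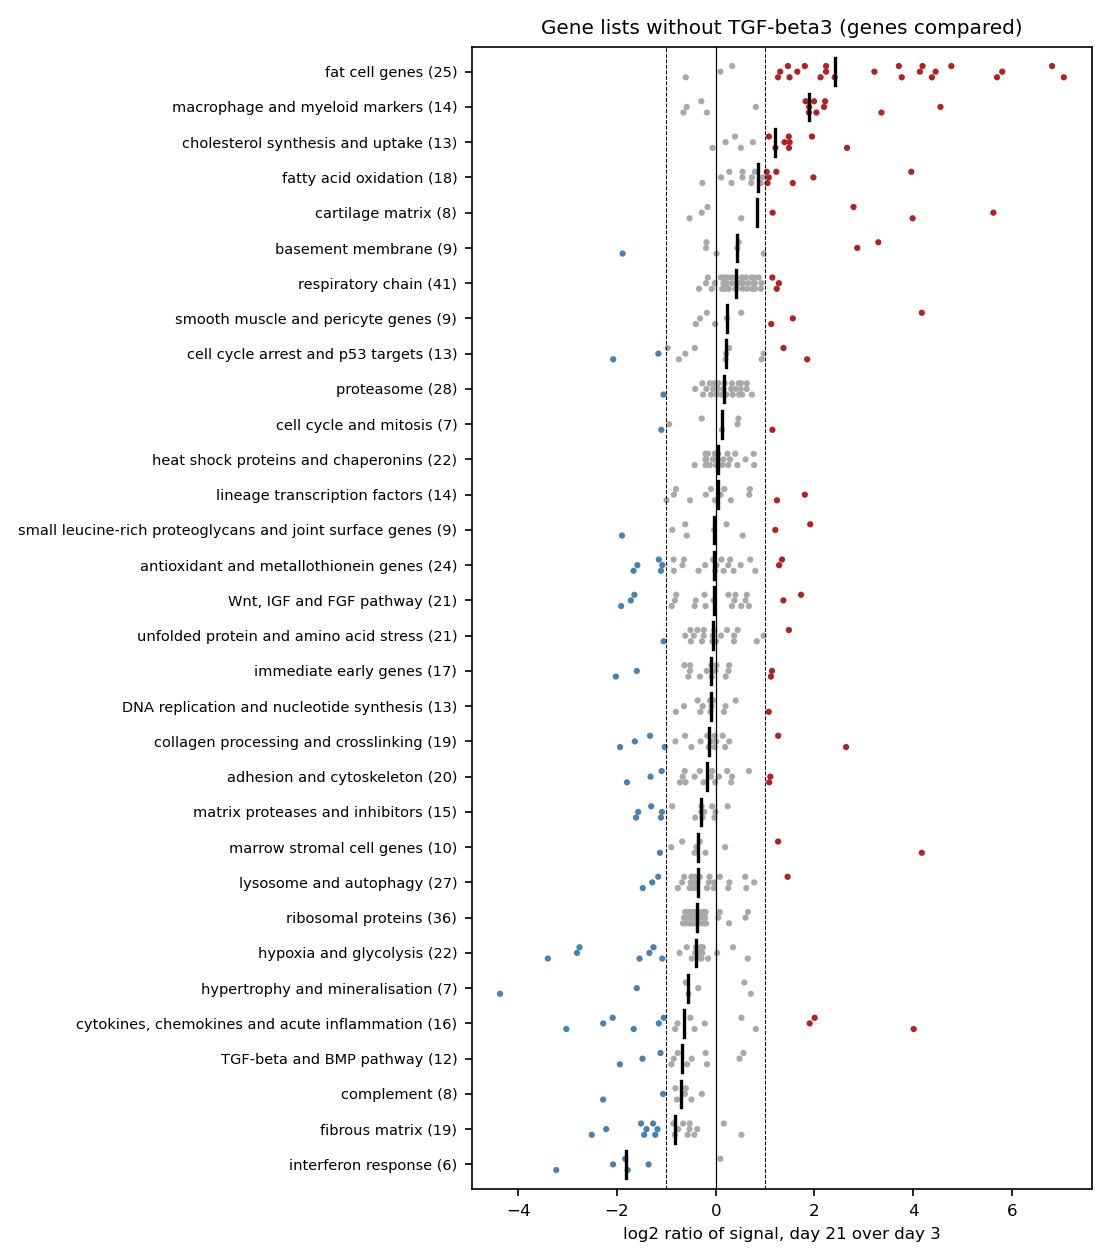
Log2 ratio of signal, day 21 over day 3, of each compared gene in the 32 lists with at least 6 compared genes (number in brackets). Each point is 1 gene, red at least 2-fold higher, blue at least 2-fold lower and grey within 2-fold, and the black bar is the list's median, from 2.41 for fat cell genes to -1.81 for interferon response. Under equal spikes each median moves up by about 0.51, so those between 0 and about -0.41 turn positive, and the small medians of the adhesion, ribosomal, antioxidant, heat shock and lineage factor lists turn sign under quantile normalization or median centring.

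Fat cell genes formed the highest list. Of 25 compared, 22 were higher, none was lower, and the median log2 difference was 2.41, against 7.3% higher and a median of 0.03 over all named genes. The list holds 8 genes that were under the floor at day 3 and none that was under it at day 21. With a signal over 50 asked of both arrays, 10 of its genes were higher and none was lower, beside 371 higher of 9258 probe sets. Fewer of its genes were compared there, as those not over 50 at day 3 drop out. The remaining 8 list members on the array, among them the transcription factor CEBPA and the hormone leptin (LEP), did not reach 50 on either array and were not compared. The summed signal of the defining myeloid markers was also higher at day 21 (278 and 487). Of these, AIF1, CD68, CD53 and PTPRC read higher, while CD14, FCER1G and TYROBP read lower and CSF1R was under the floor. The part of myeloid cells in the fat cell result was not tested.

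PPARG, the receptor that directs fat cell formation, had a signal of 193 at day 3 and 676 at day 21, 3.50-fold higher. KLF15, a transcription factor of fat, liver and muscle that is known to act with PPARG, went from 28.6 to 235, an 8.25-fold difference. Both were near that level at day 42 as well, with signals of 771 and 204 on the array without TGF-beta3. PPARGC1A, a coactivator of mitochondrial genes, had signals of 214 and 451 on its brightest probe set, 2.11-fold higher, but log2 differences of 0.34, 0.03 and -0.15 on its other 3.

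Genes for lipid uptake and handling differed in size by member. The fatty acid transporter CD36 had a signal of 207 at day 3 and 3784 at day 21, 18.3-fold higher. The fatty acid carrier FABP4 was already bright, with 2800 at day 3 and 6719 at day 21, 2.40-fold higher, while its second, dimmer probe set gave 120 and 1871, a log2 difference of 3.96. The carrier FABP5 stood at 912 and 2571. AQP7, the channel through which fat cells release glycerol, had signals of 0.35 and 787, at least 52.0-fold higher. Lipoprotein lipase (LPL), which frees fatty acids from circulating lipoproteins, went the other way within 2-fold, at 1854 and 1217. PLTP, which moves phospholipid between lipoproteins, was 8.26-fold higher, from 23.1 to 191.

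Enzymes of triglyceride synthesis are among the members of the fat cell list. ACSL1, which activates long-chain fatty acids, had signals of 471 and 1297. GPAM, which adds the first fatty acid to glycerol phosphate, had 63.0 and 1311, 20.8-fold higher, and AGPAT2, which adds the next, 4.08 and 66.0, at least 4.36-fold higher. LPIN1, which makes diglyceride, was at 46.0 and 808, 17.6-fold higher. DGAT2, the enzyme of the last step, had a signal of 10.3 at day 3, under the floor, and 2009 at day 21. That is at least 133-fold higher. GPD1, which supplies glycerol phosphate, was at 9.67 and 71.4. Each of these enzymes was at least 2-fold higher at day 21.

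Genes for making fatty acids differed by member. THRSP, a nuclear protein of lipogenic tissue, had signals of 2.51 and 1705, at least 112.6-fold higher. SCD, which puts the double bond into palmitate and stearate, was at 498 and 4627, 9.29-fold higher, and the elongase ELOVL6 at 134 and 630. Fatty acid synthase (FASN) was higher by a log2 of 1.31, at 59.4 and 147. ACLY, which makes cytosolic acetyl-CoA from citrate, was bright on both arrays and close to level, at 857 and 917. ACSS2, which makes acetyl-CoA from acetate, the main carbon source of fat in ruminants, was under the floor at day 3 (0.95) and had 611 at day 21, at least 40.4-fold higher. ACSM1, an acyl-CoA synthetase for medium-chain acids, had 1.15 and 1543, at least 102-fold higher.

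The lipid droplet and its breakdown are served by further genes. CIDEC, which fuses droplets, had signals of 6.27 and 846, at least 55.9-fold higher, and its relative CIDEA 12.4 and 198. The coat protein PLIN2 was within 2-fold, at 1181 and 1491. Of the triglyceride lipases, PNPLA2 had 67.3 and 212, and its activator ABHD5 32.4 and 972, 30.0-fold higher. Hormone-sensitive lipase (LIPE) was at 24.9 and 340, 13.6-fold higher, and its other 3 probe sets stayed under 50 at day 21. The hormone adiponectin (ADIPOQ), secreted by fat cells, had 1.38 and 332, at least 21.9-fold higher. Its receptor gene ADIPOR2 was at 18.6 and 98.9.

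On the other arrays the leading fat cell genes were near the day 21 level at day 42 without TGF-beta3 and far below it at day 21 with TGF-beta3. DGAT2, CD36, PPARG and ADIPOQ had signals of 2017, 4437, 771 and 290 at day 42, and of 6.08, 24.3, 17.9 and 0.67 at day 21 with TGF-beta3. Against day 3, 22 of 25 were at least 2-fold higher at day 42 and none was lower (10.9% and 9.04% of all named genes). The day 42 values share the day 3 array with those of day 21, so they are not a separate measurement of that array.

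**Figure D3:**
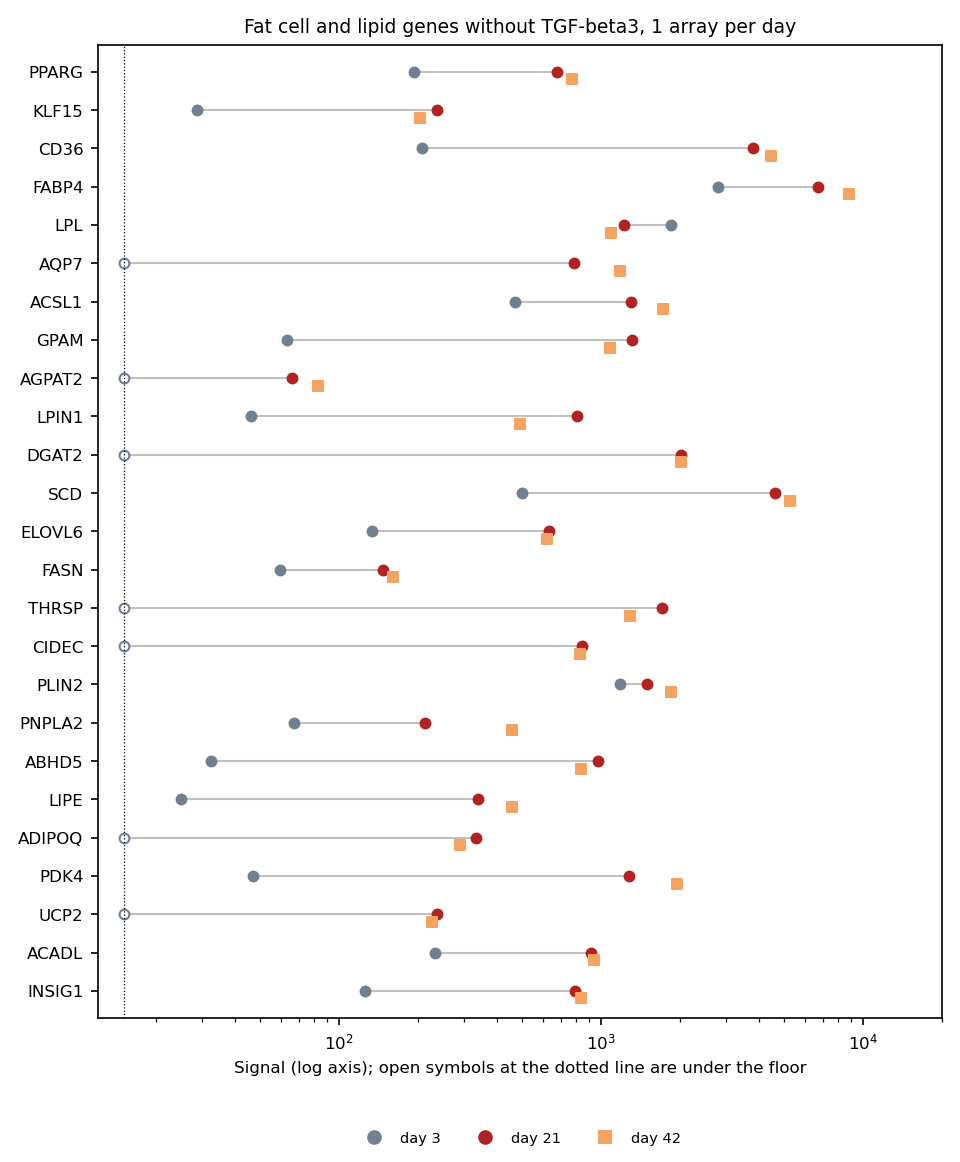
Signal on a log axis of 25 fat cell and lipid genes on the arrays without TGF-beta3 at day 3 (grey circles), day 21 (red circles) and day 42 (orange squares, drawn slightly lower), 1 array a day. Open symbols on the dotted line are under the floor. The genes shown are examples chosen with their values known and are not the 25 compared genes of the fat cell list. KLF15, ABHD5, UCP2, ACADL and INSIG1 are from outside it, and some members, among them the level ACLY, are left out. Of those shown, all but LPL and PLIN2 are at least 2-fold higher at day 21 than at day 3, and day 42 lies near day 21.

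Of 18 fatty acid oxidation genes compared, 7 were higher and none was lower, with a median log2 difference of 0.85. Under equal spikes 14 were higher and the median was 1.36, on a scale where 2183 of all 10804 probe sets were higher. The 4 acyl-CoA dehydrogenases named next take the first step of oxidation. ACADVL, for very long chains, had signals of 169 and 396, ACADL, for long chains, 232 and 913, ACADM, for medium chains, 283 and 834, and ACADS, for short chains, 55.4 and 113. Each was at least 2-fold higher on its brightest probe set, and a second ACADL probe set was higher by a log2 of 0.73. HADHB, the thiolase of the trifunctional protein, was at 374 and 774, and its partner HADHA, at 325 and 541, stayed within 2-fold. DECR1, for unsaturated fatty acids, was the one gene of the list below its day 3 signal, at 252 and 209. The uncoupling protein UCP2 had 3.59 and 236, at least 15.6-fold higher. PDK4, which shuts glucose carbon out of the mitochondria when fat is burnt, was at 46.8 and 1280, 27.4-fold higher, and its other probe sets gave log2 differences of 4.40 and at least 4.20.

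Respiratory chain genes moved little singly and mostly one way. Of 41 compared, 36 had a higher signal at day 21, 3 were at least 2-fold higher, none was lower, and the median log2 difference was 0.42. The 3 were NDUFV1 and NDUFS8 of complex I, with signals of 106 and 258 and of 140 and 331, and CYC1 of complex III, with 111 and 245. The count depends on scale and probe set, with 19 higher under equal spikes and 6 when each gene was given the median over its probe sets. SDHC, a membrane anchor of complex II, lay at the other end with 1148 and 909.

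Cholesterol synthesis genes were higher as a list. Of 13 compared, 8 were higher and none was lower, and the median log2 difference was 1.21. INSIG1, the brake on sterol-driven transcription that sterol-regulated factors themselves induce, had signals of 126 and 795, 6.33-fold higher. SREBF1, the factor that drives fatty acid synthesis genes, was at 148 and 414, with a second probe set higher by 2.13 on the log2 scale. Higher enzymes on the way from acetyl-CoA to squalene and its epoxide were HMGCS1 (139 and 322), PMVK (94.3 and 248), FDFT1 (313 and 883) and SQLE (178 and 375). A second FDFT1 probe set was within 2-fold, at a log2 difference of 0.60, as was FDPS, at 0.51. Of the later sterol steps, EBP was at 141 and 546, 3.86-fold higher, and NSDHL at 47.5 and 133. DHCR7, CYP51A1 and MSMO1 were within 2-fold, with log2 differences of 0.75, 0.39 and 0.20. ACAT2, the first enzyme of the path, was level at 593 and 567.

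Of 14 macrophage and other myeloid genes compared, 9 were higher and none was lower, with a median log2 difference of 1.89, or 0.83 with the floor at the 60th percentile. With a signal over 50 asked of both arrays 3 were higher and none was lower, among fewer genes compared, since most started dim. VSIG4, a complement receptor of tissue macrophages, had signals of 5.96 at day 3 and 355 at day 21, at least 23.5-fold higher. SLC11A1, a metal transporter of phagocyte vesicles, was at 263 and 2695, 10.3-fold higher. The calcium-binding S100 proteins of neutrophils and monocytes were bright, S100A8 at 675 and 3138, S100A12 at 1018 and 4659, and S100A9 dimmer at 36.5 and 150. The pan-leukocyte phosphatase PTPRC had 15.98 and 63.6, the lysosomal CD68 11.3 and 56.3, the tetraspanin CD53 32.0 and 113, and AIF1, an actin-binding protein of macrophages, 33.1 and 123. These 4 are among the 8 defining markers measured, and each was at least 2-fold higher, from a day 3 signal under 50. None of them was compared with a signal over 50 asked of both arrays. With the floor at the 60th percentile CD68 and PTPRC were within 2-fold, at log2 differences of 0.02 and 0.20, while CD53 and AIF1 stayed past 2-fold. Another PTPRC probe set gave a log2 difference of 0.89, and the last was under the floor on both arrays.

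The other 4 defining markers measured, CD14, FCER1G, TYROBP and CSF1R, were within 2-fold or under the floor. The endotoxin co-receptor CD14 was at 83.9 and 53.4, the signalling chains FCER1G at 51.4 and 42.0 and TYROBP at 37.6 and 32.3, and cathepsin S (CTSS) at 485 and 429. CSF1R, the receptor on which most macrophages depend, was under the floor at 12.7 and 3.64, and of 24 list members on the array 10 did not reach 50 on either array. At day 42 VSIG4, SLC11A1 and S100A12 had signals of 507, 3753 and 7152, and at day 21 with TGF-beta3 they had 3.57, 28.1 and 51.9. The part of myeloid cells in these signals was not tested.

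Interferon response genes were lower, at low signals. Of 6 compared, 5 were lower and none was higher (4.68% and 7.3% of all named genes), with a median log2 difference of -1.81. ISG15, a ubiquitin-like protein made under interferon, had signals of 142 at day 3 and 2.50 at day 21, at least 9.38-fold lower. The antiviral GTPase MX1 was at 52.1 and 4.40, at least 3.44-fold lower, and IFI6 at 92.2 and 36.0. The immunoproteasome subunits PSMB8 and PSMB9, at 146 and 40.9 and at 64.6 and 15.3, were lower with them, and USP18, which removes ISG15 from proteins, was level at 74.9 and 80.0. No gene of this list other than USP18 was over 50 on both arrays, and 2 were lower with the floor set at the 60th percentile. At day 42 the signals were near or above those of day 3, with 317 for ISG15, 122 for MX1, 178 for IFI6, 140 for PSMB8 and 56.7 for PSMB9. So day 21 was the low array of the 3 without TGF-beta3 for each of these 5 genes.

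Cytokine and acute inflammation genes split. Of 16 compared, 6 were lower and 3 higher, with a median log2 difference of -0.64. Under equal spikes 5 were higher, and CXCL5 and SOD2, counted as lower here, were within 2-fold. With a signal over 50 on both arrays 1 was higher. Across the scalings, floors and signal thresholds tried, the lower count ran from 4 to 6. IL6, a cytokine of acute inflammation, had signals of 123 and 10.4, at least 8.14-fold lower. The chemokines CCL20, at 333 and 78.4, CCL2, at 587 and 186, and CXCL5, at 409 and 197, were lower as well. Haptoglobin (HP), an acute phase protein, was at 133 and 27.5, 4.85-fold lower, and the mitochondrial dismutase SOD2, induced by inflammatory signals, at 7115 and 3202. In the other direction LBP, which carries endotoxin to CD14, had 0.29 and 244, at least 16.1-fold higher. The pentraxin PTX3 was at 227 and 848, 3.74-fold higher, and the leukocyte adhesion molecule ICAM1 at 14.9 and 60.8. IL6 was under the floor at day 42 too, when CCL2 and CCL20 stood at 256 and 130. All 8 complement genes compared had a lower signal at day 21 (median log2 difference -0.70), and 2 were at least 2-fold lower, factor B (CFB) of the alternative pathway, at 879 and 181, and the membrane inhibitor CD55, at 267 and 128. Under equal spikes only CFB of these was lower.

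Some genes induced by low oxygen were among the lowest. Of 22 hypoxia and glycolysis genes compared, 7 were lower, none was higher and 19 had a lower signal at day 21. The median log2 difference was -0.41, but 0.10 under equal spikes, where 4 were lower and 1 higher, and 4 were lower with a signal over 50 on both arrays. EGLN3, a prolyl hydroxylase that marks the hypoxia factor for breakdown and is itself induced by it, had signals of 160 and 11.2, at least 10.6-fold lower. NDUFA4L2, not itself in the list, replaces a subunit of the respiratory chain in low oxygen. It was at 162 and 15.6, 10.4-fold lower, and its second probe set at least log2 2.76 lower. BNIP3, which directs removal of mitochondria, was at 1064 and 152, 7.01-fold lower, with log2 differences of -2.25 and -2.19 on its other 2 probe sets. The lactate exporter SLC16A3 was at 161 and 23.8, 6.77-fold lower, on the brightest of 3 probe sets, and another, dim one was at 15.7 and 21.5. NDRG1, a stress-induced gene, was at 1119 and 384. Other members, ADM, EGLN1, BNIP3L, DDIT4 and SLC2A1, were within 2-fold, with log2 differences of -0.73, -0.42, -0.40, -0.29 and 0.03.

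Glycolysis itself was less uniform. Lactate dehydrogenase A (LDHA) had signals of 4374 and 1724, a log2 difference of -1.34, and -0.75 and -0.88 on its other probe sets. GAPDH, often taken as a loading control, was at 4054 and 1915, a log2 difference of -1.08. PFKP, also past 2-fold, had a log2 difference of -1.26. PGK1, TPI1, PKM and ENO1 were lower by less than 2-fold, at 4472 and 2979, 1880 and 1344, 1609 and 1342, and 952 and 855. PFKFB3, which sets the pace of glycolysis, and aldolase A (ALDOA) stood higher within 2-fold, at 827 and 1297 and at 1939 and 2473. The transcription factor HIF1A, which acts mainly through protein stability, was at 1720 and 1367. Outside the list, the disulphide-forming oxidases ERO1A and QSOX1 were at 338 and 67.7 and at 1444 and 301, 4.995-fold and 4.79-fold lower. VEGFA, the vessel growth factor that low oxygen induces, was at 290 and 95.6, 3.03-fold lower, with a second probe set at -1.96 on the log2 scale.

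**Figure D4:**
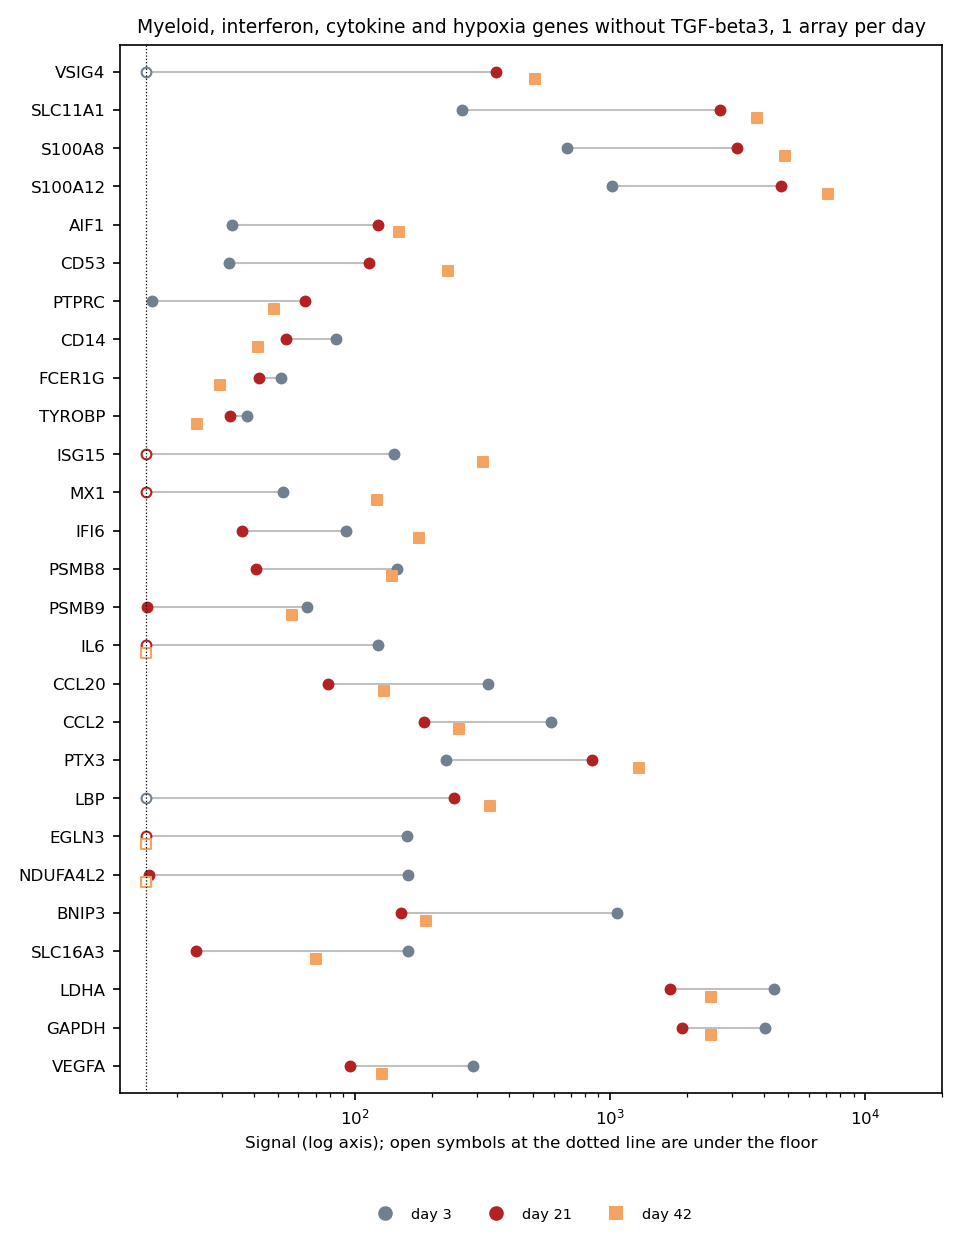
Signal on a log axis of 27 myeloid, interferon, cytokine, hypoxia and glycolysis genes on the arrays without TGF-beta3 at day 3 (grey circles), day 21 (red circles) and day 42 (orange squares, drawn slightly lower). The genes shown are examples chosen with their values known. NDUFA4L2 and VEGFA are from outside the hypoxia and glycolysis list, and members of that list within 2-fold, among them SLC2A1 and ALDOA, are left out. Open symbols on the dotted line are under the floor. The interferon genes ISG15, MX1, IFI6, PSMB8 and PSMB9 are lowest at day 21, while the hypoxia genes EGLN3 and NDUFA4L2 are at or near the floor at days 21 and 42.

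The fibrous matrix, by which stromal cells are known, was lower at day 21. Of 19 genes compared, 8 were lower, none was higher and 17 had a lower signal, with a median log2 difference of -0.83. Under equal spikes the median was -0.32, 3 genes were lower and 1 was higher. The type I collagen chains COL1A1 and COL1A2 had signals of 3976 and 1505 and of 7798 and 3238, log2 differences of -1.40 and -1.27, and type III collagen (COL3A1) 8224 and 4531, -0.86. The second COL1A2 probe set gave -0.82. The type VI chains COL6A1 and COL6A2, which form beaded filaments around cells, were at 2115 and 934 and at 330 and 121. Fibronectin (FN1) was within 2-fold on its bright probe set, at 6481 and 4370, and -1.66 on the log2 scale on a dim one.

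Among the smaller matrix proteins periostin (POSTN), which helps crosslink collagen, had signals of 150 and 32.3, 4.65-fold lower. The elastic fibre proteins FBLN5 and FBLN1 were at 86.3 and 11.0, at least 5.70-fold lower, and at 246 and 86.3. Thrombospondin 2 (THBS2), a regulator of fibril assembly, was at 568 and 243. COL12A1, a collagen that lies on fibril surfaces, went the other way within 2-fold, at 1658 and 2380. COL1A1 was dimmer again at day 42, with 478, and COL1A2 with 1869, and 10 of the 19 genes were then at least 2-fold lower than at day 3.

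The enzymes that process collagen were split by member. Of 19 compared, 4 were lower and 2 higher, with a median log2 difference of -0.14, or 0.37 under equal spikes, where 2 were lower. The prolyl hydroxylase subunits P4HA1 and P4HA2, which stabilise the triple helix and need oxygen, had signals of 1327 and 347 and of 1570 and 505, 3.83-fold and 3.11-fold lower. Their relative P4HA3 was level at 846 and 934. The collagen chaperone FKBP10 was at 381 and 152, and lysyl oxidase (LOX), the main crosslinking enzyme, at 1581 and 774. Its relative LOXL4 had 3.48 and 94.5, at least 6.24-fold higher, and PLOD3, which hydroxylates and glycosylates collagen lysines, was at 27.4 and 65.9. With a signal over 50 asked of both arrays neither of the higher ones was counted.

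Cartilage genes gave a mixed picture. Of 8 compared, 4 were higher and none was lower, with a median log2 difference of 0.84, and 2 were higher with a signal over 50 on both arrays. The median was 1.35 under equal spikes. Type II collagen (COL2A1), the fibril collagen of cartilage, had signals of 55.5 at day 3 and 2739 at day 21 on 1 of its 4 probe sets, 49.4-fold higher. The other 3 were under the floor on both arrays (7.10, 0.75 and 14.3 at day 21), though with TGF-beta3 at day 21 they read 986, 110 and 1033 and the bright one 10475. COMP, which joins collagen fibrils, had 7.72 and 240, at least 15.9-fold higher, on 1 probe set, and its second was under the floor on both arrays. The Wnt antagonist FRZB of joint cartilage was at 25.8 and 179, 6.93-fold higher. The water-binding proteoglycan aggrecan (ACAN) was at 414 and 920, 2.23-fold higher, with log2 differences of 1.45 and 1.34 on its 2 dimmer probe sets.

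Other cartilage genes were level or dim. COL11A1, whose collagen seeds type II fibrils, was at 4037 and 3603, and its 7 probe sets lay between log2 differences of -0.30 and 0.11. Link protein (HAPLN1) stood at 3682 and 3029 and versican (VCAN) at 3262 and 2258. COL9A1, a collagen on the surface of type II fibrils, had 4.96 and 31.5 and did not reach 50, and COL10A1 and MATN1 were under the floor on both arrays.

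Genes of the joint surface and the small leucine-rich proteoglycans, which bind collagen fibrils, numbered 9 compared, with 2 higher, 1 lower and a median of -0.03 (0.48 under equal spikes). Lubricin (PRG4) had signals of 865 and 3263, 3.77-fold higher, and log2 differences of 1.93, 1.89 and -0.09 on its other 3 probe sets. Clusterin (CLU), a secreted chaperone, was at 986 and 2276. Asporin (ASPN), which binds collagen and TGF-beta, was at 77.9 and 20.9, 3.73-fold lower, and was not compared with a signal over 50 asked of both arrays. Decorin (DCN), lumican (LUM) and fibromodulin (FMOD) were very bright and lower within 2-fold, at 7752 and 5162, 7938 and 5172, and 6533 and 3552.

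Basement membrane genes diverged among 9 compared, with 2 higher and 1 lower, and none higher with a signal over 50 on both arrays. COL4A1, a chain of the type IV network, had signals of 32.2 and 316, 9.81-fold higher, and a second probe set was at least log2 2.19 higher. SPARCL1 was at 4.29 and 111, at least 7.30-fold higher, but at 15.9 again at day 42. COL15A1, a collagen that ties basement membrane to the fibres below, was at 1702 and 461, 3.70-fold lower, and at 115 at day 42. The laminin chains LAMB1 and LAMC1 stayed within 2-fold at 1851 and 2507 and at 2205 and 1925.

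Matrix-degrading enzymes were lower where they differed. Collagenase 3 (MMP13), known from hypertrophic cartilage and bone, had signals of 738 and 35.8, 20.6-fold lower, with a log2 difference of -4.00 on its second probe set. Of 15 other proteases and inhibitors compared, 5 were lower and none was higher, with a median of -0.29, or 0.22 under equal spikes, where 2 were lower, and 3 were lower with a signal over 50 on both arrays. The 5 were the gelatinase MMP2 (1938 and 911), the collagen-cleaving cathepsin K (CTSK, 6924 and 3210), the plasminogen activators PLAU (82.0 and 33.1) and PLAT (75.5 and 24.7), and the inhibitor TIMP3 (719 and 242). TIMP2 was level at 3021 and 3015. In the hypertrophy and mineralisation list MMP13 and VEGFA were the 2 lower of 7 and none was higher, while 2 were higher under equal spikes, 1 after quantile normalization, and 1 was lower with a signal over 50 on both arrays. The bone sialoprotein IBSP was bright at 7338 and 5750 on 1 probe set while its other was under the floor on both arrays. The osteoblast genes BGLAP and ALPL were under the floor on both arrays.

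**Figure D5:**
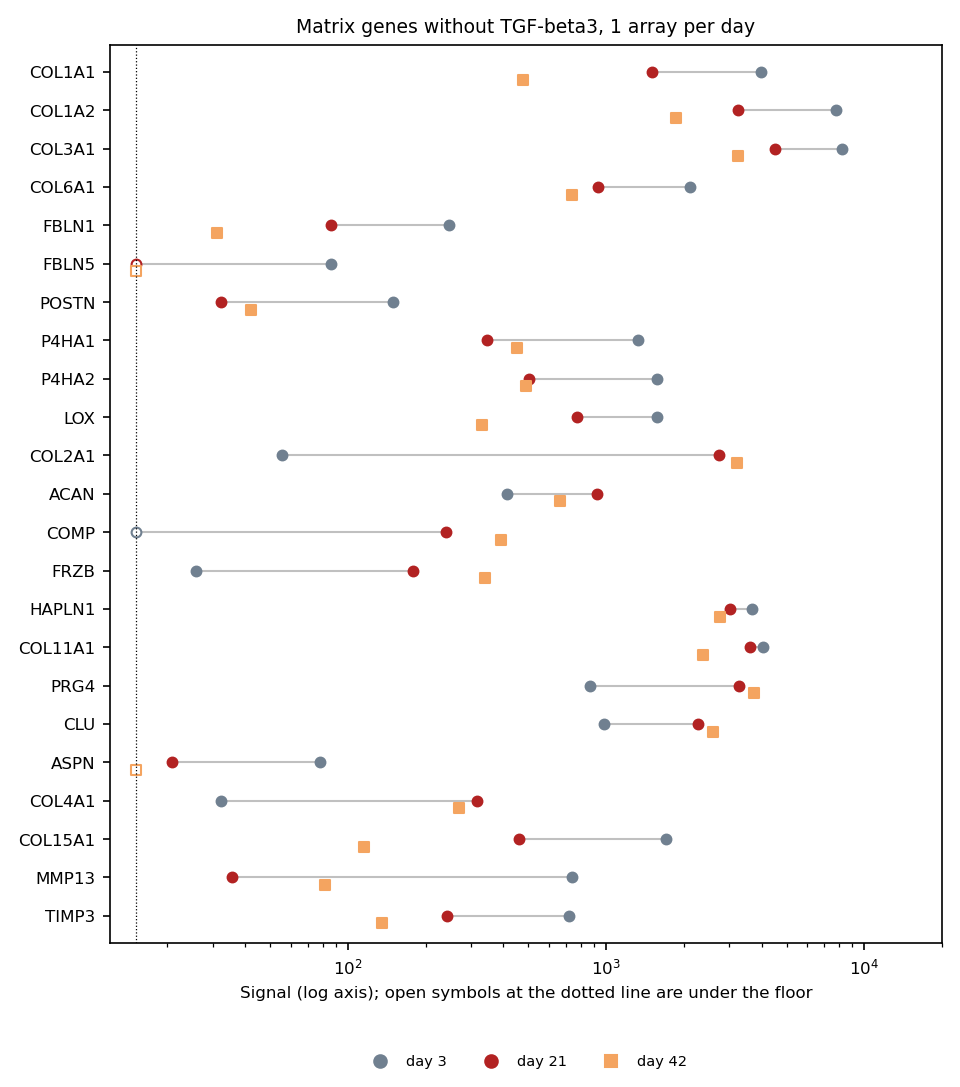
Signal on a log axis of 23 matrix genes, examples chosen with their values known, on the arrays without TGF-beta3. Days are day 3 (grey circles), day 21 (red circles) and day 42 (orange squares, drawn slightly lower). Open symbols on the dotted line are under the floor. COL1A1, COL1A2 and COL3A1 step down from day 3 to day 21 to day 42 (also on the spike scale for day 21 against day 3, by 0.51 less in log2), while COL2A1, COMP, FRZB and PRG4 are higher at both later days.

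Of 12 genes of the TGF-beta and BMP pathway compared, 3 were lower and none was higher, with a median log2 difference of -0.67, while 1 was lower and 1 higher under equal spikes. The ligand BMP2 had signals of 366 and 95.2, 3.84-fold lower, the type I receptor TGFBR1 410 and 147, and the activin chain INHBA 91.1 and 42.0. The ligand TGFB2 was within 2-fold at 2275 and 1263. The type II receptors TGFBR2 and BMPR2 were at 660 and 573 and at 1213 and 812.

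In the Wnt, IGF and FGF list 2 of 21 were higher and 3 lower, with a median of -0.04 (0.47 under equal spikes). Under equal spikes 6 were higher, and with a signal over 50 on both arrays 1 was higher and 1 lower. The IGF binding proteins parted. IGFBP3, the main carrier of IGF in blood, had signals of 898 and 2978, 3.32-fold higher, and a second probe set was higher by 1.85 on the log2 scale. IGFBP4, IGFBP5 and IGFBP6 were at 139 and 42.1, 69.2 and 22.1, and 249 and 66.0, each over 3-fold lower, and IGFBP2 and IGFBP7 stayed within 2-fold. FGF2, a growth factor for MSCs, was at 38.9 and 101. The antagonists SFRP1 and SFRP4 were within 2-fold at 2115 and 3028 and at 2673 and 1989.

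Stromal identity genes shifted singly. Of 10 compared, 2 were higher and 1 lower, with a median of -0.36 (0.15 under equal spikes). None was lower under equal spikes, 2 were lower with probe sets of a gene summarised by their median, and 1 was higher with a signal over 50 on both arrays. MCAM (CD146), a marker of perivascular stromal cells, had signals of 9.55 and 274, at least 18.1-fold higher, and ANGPT1, a vessel-stabilising factor of marrow stroma, 221 and 531. The hyaluronan receptor CD44 was at 925 and 423, 2.19-fold lower, and the chemokine CXCL12, which holds blood stem cells in the marrow, at 591 and 317. The surface marker THY1, at 83.6 and 95.5, was within 2-fold. NT5E, another, was within 2-fold on its brighter probe set, at 1082 and 676. Its second probe set was 2.50-fold lower, at 469 and 188. Of 9 smooth muscle and pericyte genes 3 were higher, MCAM, transgelin (TAGLN, 48.8 and 144) and LMOD1 (33.2 and 72.5), none with a signal over 50 on both arrays, while CNN1 and MYH11 were under the floor on both. ACTA2, the actin of smooth muscle, was within 2-fold at 438 and 627.

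Of 20 cytoskeleton and adhesion genes 2 were higher and 3 lower, with a median of -0.17, which was 0.03 after quantile normalization and 0.34 under equal spikes, where 1 was lower. The tubulins TUBB and TUBA1A had signals of 387 and 821 and of 1265 and 2723. The integrin chains ITGAV and ITGB3, which pair as a receptor for matrix proteins, were at 1044 and 489 and at 937 and 375, and the actin crosslinker ACTN4 at 1138 and 327, while another ACTN4 probe set was level at a log2 of -0.02. Beta-actin (ACTB) stood at 3837 and 3598, a log2 difference of -0.09 that turns positive under equal spikes.

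Dividing-cell genes were mostly too dim to compare. Of 30 cell cycle genes on the array, 23 did not reach 50 on either array, and CDK1, the kinase of mitosis, had signals of 33.0 and 8.999. Of the 7 compared, 1 was higher, the tubulin-binding STMN1 (2005 and 4446), and 1 lower, BIRC5 of the mitotic spindle (65.4 and 30.5), which was within 2-fold under equal spikes. Of 13 DNA replication genes 1 was higher, MCM7 of the replicative helicase (139 and 294), and none was lower. Among genes of cell cycle arrest and p53 targets, the inhibitors CDKN1C and CDKN2C were at 41.9 and 151 and at 213 and 551, both higher, while MDM2, which marks p53 for breakdown, was at 327 and 77.4, 4.22-fold lower, and TP53INP1 at 926 and 414. In that list 4 were higher and 1 lower under equal spikes, against 2 and 2, and 1 was higher with a signal over 50 on both arrays. CDKN1A was bright and within 2-fold at 3035 and 1984.

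Immediate early genes, which cells switch on within minutes of a stimulus or of handling, numbered 17 compared, with 2 higher, 2 lower and a median of -0.09 (0.42 under equal spikes). With a signal over 50 on both arrays 1 was higher and 1 lower. FOS had signals of 130 and 90.5, JUN 1757 and 1655 and EGR1 557 and 667. The stress factor ATF3 was at 95.4 and 23.5, 4.06-fold lower, and IER3 at 202 and 66.8, while FOSL2 was at 62.3 and 137 and ZFP36, which destabilises cytokine messages, at 40.8 and 88.6.

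Housekeeping groups held few genes past 2-fold. None of 36 ribosomal protein genes and none of 22 heat shock and chaperonin genes differed by 2-fold, and 1 of 28 proteasome genes did, PSMD4, lower at 292 and 140. Under equal spikes 2, 3 and 6 genes of these lists were higher and PSMD4 was within 2-fold. Of 27 lysosome and autophagy genes 3 were lower, the protease CTSC (457 and 164), the galactosidase GLB1 (324 and 133) and CTSV (1988 and 887), and 1 was higher, the cholesterol exporter NPC1 (96.5 and 265), with a median of -0.37 that was 0.14 under equal spikes, where none was lower and 4 were higher. Of 24 antioxidant and metallothionein genes 5 were lower and 2 higher, with a median of -0.03 (0.48 under equal spikes), and 2 were lower and 5 higher under equal spikes. Metallothionein MT2A was at 404 and 135, 3.00-fold lower, and MT1A level at 119 and 133. The selenium carrier SELENOP was at 4021 and 1863 and the extracellular dismutase SOD3 at 98.99 and 31.2, and the cytosolic peroxidase GPX1 at 762 and 360, while the plasma peroxidase GPX3 was at 193 and 491 and SRXN1, which restores oxidised peroxiredoxins, at 138 and 336.

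Probe sets of the same gene are the only repeat measurement the 2 arrays hold, and they share the RNA and the array. Of 1187 genes with at least 2 compared probe sets, 227 had one past 2-fold. In 55 of these all compared probe sets were past 2-fold in 1 direction, in 118 they had the same sign but not all were past 2-fold, and in 54 the signs were opposed. Among the last, 4 genes (ACBD5, EED, POGZ and TRIB2) had probe sets past 2-fold both ways. The median range of the log2 difference within a gene was 0.40. A fold read from 1 probe set, as for COL2A1, COMP and BOLA-DQB1, is therefore less firm than one shared by several, as for PDK4, BNIP3, MMP13, IGFBP3 and CCL2.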

How the data were processed

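Total RNA was amplified and biotinylated, and 1 Affymetrix bovine array was hybridised per condition, per the labels' protocols. The authors deposited 1 signal intensity per probe set on a linear scale, which the submitters' processing notes credit to MAS5 without a version. The 112 control probe sets were left out of 24128. A probe set was compared where its signal exceeded 50 on at least 1 of the 2 arrays. Signals under a floor (15.1, the 40th percentile of all values on the 6 arrays) were set to it, and the log2 ratio of day 21 over day 3 was taken with numpy 2.4.6 and pandas 2.3.3 in Python 3.11.15, figures with matplotlib 3.10.9. Higher and lower mean at least 2-fold. The code for the rule was checked on simulated data, with folds larger than 2-fold put into bright signals under low noise. That check cannot tell how often dim or noisy signals pass the rule. No p-value was computed.

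Gene names came from the platform annotation, which gave 13292 probe sets 1 name, 86 several and 10638 none. In RefSeq 13263 of their gene identifiers were found and no symbol changed, and 27 list symbols were carried over through synonyms. Each gene took the probe set whose log2 signal averaged highest across the 6 arrays. The text names the 20 highest and 20 lowest genes above the floor on both arrays, the 10 highest and 10 lowest bounds, up to 5 members past 2-fold in each direction of each list, and a set of matrix, fat, cell cycle and cell type genes whatever their values. Other list members are examples chosen after their values were seen. The members and the 38 lists (796 listed genes on the array, 538 compared) were chosen with earlier results of these data known. Other scalings, floors, thresholds and fold sizes were tried. A planned description of promoter motifs was not run, as no sequences were used here, and no genome coordinates are given.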

Additional observations from a re-analysis of the deposited data

How the results depend on the processing

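Scaling the arrays to equal spikes gave 2183 probe sets higher and 216 lower with a median log2 difference of 0.51. A floor at the 60th percentile gave 485 and 332, a signal over 100 on 1 array 518 and 361, a signal over 50 on both arrays 371 and 287, a 1.5-fold size 1826 and 1631, a 3-fold size 324 and 193, and genes in place of probe sets 392 and 251. Quantile normalization (721 and 643), median centring (739 and 675), a floor at the 25th percentile or none (822 and 598 each) and the floor value added to every signal (600 and 417) stayed within 1.5 times of 822 and 598. The interferon list's median turned to 0.096 with a signal over 50 on both arrays, where USP18 alone was left. Of 160 named genes past 2-fold, 78 were not compared when a signal over 100 on 1 array or over 50 on both was asked. Of the rest, 34 were past the size under every alternative run and 22 more were lost only at the 3-fold size. None of these 160 genes changed sign under an alternative in which it was compared. Named genes within 2-fold could, as ACTB did under equal spikes. No paired analysis was possible because each condition has 1 array and the labels carry no replicate numbers. For the same reason no array could be left out. Genes with signals near the floor have folds that depend on the floor, and signal over background limits them.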

Other observations

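Several genes outside the lists stood among the 20 largest differences measured above the floor on both arrays. Higher at day 21 were MBNL3, a splicing regulator, with signals of 20.4 and 333, GCAT, which breaks down threonine to glycine, with 15.3 and 248, PRXL2A, a peroxiredoxin-like protein, with 26.5 and 321, and PCK2, the mitochondrial enzyme that makes phosphoenolpyruvate, with 45.8 and 406. The glutamate transporter SLC1A3 was at 29.2 and 224, the phosphodiesterase PDE1A at 27.9 and 193, and the calcium-binding S100G at 71.0, 468 and, at day 42, 1567. The mitochondrial carrier SLC25A34 had 1.64 and 261, at least 17.2-fold higher. Lower at day 21 were the secreted ANGPTL2 (113 and 18.6, 6.09-fold), the potassium channel KCNJ2 (377 and 82.0), MFGE8, which helps clear dead cells (397 and 92.4), and TMEM119 (290 and 64.6). Of genes under the floor at day 21, the thrombin receptor thrombomodulin (THBD) had 72.5 and 6.17, at least 4.79-fold lower, and the oncostatin M receptor OSMR 87.5 and 11.99, at least 5.78-fold lower, while other OSMR probe sets gave log2 differences of -1.59 and -0.09. ALDH9A1 was 4.51-fold lower on 1 probe set, at 94.98 and 21.0, and level on its other, at 109 and 130. Also among the 20 lowest were ASAP1 (190 and 41.1), the kinases DAPK1 (81.7 and 18.2) and NEK9 (165 and 37.5), and the defensin DEFB10 (79.0 and 17.8), each over 4-fold lower. The largest lower bounds also held TTYH2 (71.1 and 6.01, at least 4.70-fold), DDC (66.7 and 1.49, at least 4.40-fold), THBS3 (62.6 and 12.4, at least 4.13-fold) and ZBTB5 (59.3 and 14.9, at least 3.92-fold).

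The lowest named gene above the floor on both arrays was BOLA-DQB1, a class II histocompatibility gene that presents antigen, with 1081 at day 3, 48.7 at day 21 and 61.0 at day 42 on 1 of 5 probe sets, 22.2-fold lower at day 21. Its other 4 were under the floor on both arrays, and the bright one read 3158 at day 21 with TGF-beta3. None of the 10 listed class II genes on the array, nor of 16 lymphocyte and red cell genes and 11 epithelial genes, reached 50 at either day. In the unfolded protein and amino acid stress list 1 of 21 was higher, the transporter chain SLC3A2 (31.0 and 86.6), and 1 lower, the foldase PDIA3 (1354 and 652), with a median of -0.06 (0.45 under equal spikes, where 3 were higher and none lower). Of 14 lineage transcription factors, PPARG and ZBTB16 (51.0 and 121) were higher and none was lower, while 4 were higher under equal spikes and 1 was lower after quantile normalization. The muscle creatine kinase CKM read 857 and 1036 on 1 probe set with its other under the floor, beside 3 muscle genes (MYOD1, MYOG and ACTA1) that were under it. Of the compared probe sets, 3822 had no gene name here, and 308 of them were higher and 241 lower.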
